A study of Mus musculus with 10 samples.

Results

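The histone cluster genes are the 70 genes, of 54532 in the deposited expression table, whose symbol begins with Hist1h, Hist2h, Hist3h or Hist4h, and they were selected by that symbol alone. They comprise 6 genes for the linker histone H1 and, for the core histones, 20 for H2A, 19 for H2B, 12 for H3 and 13 for H4. By symbol, 56 are Hist1 genes on chromosome 13, 10 Hist2 on chromosome 3, 3 Hist3 on chromosome 11 and 1 Hist4 on chromosome 6. All Hist1 genes but Hist1h2al lie between chr13:21715763 and chr13:23934851. Hist1h2al, at chr13:51202727-51203065, lies outside that stretch, so only its symbol places it in the Hist1 cluster.

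Their expression was measured by RNA-seq of spleens from 5 DUSP6 KO mice and 5 WT mice, each library from 1 mouse, and the study set out to find genes affected by the presence of DUSP6, a phosphatase that acts on ERK. The DUSP6 KO mice carried Dusp6tm1Jmol, a deletion present in all cells and not in a single cell type, and the WT mice were C57BL/6J. The labels describe the mutants as DUSP6 Knockdown. Mice of both groups were 8 to 12 weeks old, received 100 µL of pooled serum from arthritic KRN x NOD F1 mice on days 0 and 2 to induce KRN serum-induced arthritis (KSIA), and gave their spleens on day 9, so no library came from a mouse without arthritis serum. The libraries are called here by genotype and animal number (DUSP6 KO 26, 21, 73, 01 and 03, and WT 65, 67, 73, 77 and 83). They held 14990474 to 19822673 reads, of which the histone cluster genes took 0.0121% to 0.0244%, or 2098 to 3769 reads. The targeted gene Dusp6 lay between 0.308 and 0.624 FPKM in the DUSP6 KO libraries and between 16.6 and 24.0 FPKM in those of WT, where FPKM is fragments per kilobase of gene length, scaled to library depth. The labels name mice of both sexes, whereas the Y-linked Ddx3y was between 14.4 and 18.6 FPKM and Xist at most 0.0206 FPKM in all 10 libraries, which are levels of male mice. B cell markers, defining for spleen, summed to at least 683.7 FPKM in each library. WT 67 stood apart with exocrine pancreas genes at 18763 FPKM, beside 9.55 to 232.1 FPKM in the other libraries, and DUSP6 KO 73 had the highest level of erythroid genes.

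Histones package DNA into nucleosomes, and a cell must make a new set each time it copies its genome. The cluster genes serve this need in S phase: their mRNAs as a rule have no introns and end in a conserved stem-loop that is bound by the protein SLBP, in place of a poly(A) tail. Some of these genes also give polyadenylated mRNA that runs past the stem-loop, mainly in cells that have left the cell cycle. The libraries were prepared from RNA captured on poly-T beads, which select poly(A) tails, so the levels below are those of captured RNA and not the total histone mRNA of the spleen.

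The stem-loop was searched for as a consensus of 16 bases, the histone stem-loop consensus, in the annotated transcripts (GENCODE M21, GRCm38), where the coordinates of all 70 genes are identical to those in the deposited table. It was found in 46 of the 70 genes (65.7%) and in 40 of 55380 other annotated genes (0.0722%), among them H2afx, an H2A variant. On the opposite strand of those other genes it was found in 39. In the 46 genes it began 21 to 58 bases after the stop codon (median 31), within the 3′ UTR. These 4 are shown because they are the forms carried by the most abundant H1 and H4 genes, by the H3 gene Hist1h3c, and by Hist1h4a, described below. The 16 bases of the consensus are in capitals, with 5 bases on each side, as DNA of the transcript strand.
Hist1h1c: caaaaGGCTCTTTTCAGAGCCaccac
Hist1h3c: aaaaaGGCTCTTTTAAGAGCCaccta
Hist1h4i: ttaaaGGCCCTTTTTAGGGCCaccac
Hist1h4a: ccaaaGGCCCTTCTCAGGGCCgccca
The capitals lie at chr13:23739512-23739527 on the plus strand for Hist1h1c, and on the minus strand at chr13:23745047-23745062 for Hist1h3c, chr13:22040966-22040981 for Hist1h4i and chr13:23760800-23760815 for Hist1h4a. The form in Hist1h1c was the most common, in 26 genes, and 8 forms occurred in all. The form in Hist1h4a, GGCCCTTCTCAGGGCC, occurred in that gene alone.

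The annotated transcripts differed in what follows the stem-loop. In 23 genes the transcript ended within 100 bases of it, and in 17 more, which hold no consensus, within 50 bases of the stop codon. These 40 are called short-ended here, a name for the annotated model only. Several of the 17, among them Hist1h1b, Hist1h2ak, Hist1h3i and Hist1h4k, have 0 annotated bases after the stop codon. For such genes a missing annotation and a short transcript cannot be told apart. In 23 other genes more than 100 bases followed the stem-loop, and in 4 (Hist1h2bc, Hist1h2bq, Hist1h2br and Hist2h2be) a 3′ UTR of 742 to 2192 bases held no consensus. These 27 are called extended. The last 3, Hist1h2aj, Hist1h2al and Hist3h2bb-ps, are annotated as pseudogenes. The limits of 100 and 50 bases were chosen after the data had been examined.

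The 5 genes of highest level were all extended, and together they held 51.9% of the summed FPKM of the 70. Hist1h1c, a linker histone gene, stood first at 35.6 FPKM on average over the 10 libraries. The H2B gene Hist1h2bc followed at 15.97 FPKM and the H4 gene Hist1h4i at 14.5 FPKM. Hist3h2ba, also an H2B gene, averaged 8.88 FPKM and Hist2h2be, another, 5.36 FPKM. Extension was no guarantee of a high level: the median over the 27 extended genes was 0.97 FPKM, beside 0.95 FPKM over the 40 short-ended genes. The highest short-ended gene was the H4 gene Hist1h4k at 4.83 FPKM, and the H3 gene Hist1h3i followed at 4.15 FPKM. Bases from the stop codon to the transcript end numbered 880 in Hist1h1c, 376 in Hist1h4i and 213 in Hist3h2ba, and none were annotated in Hist1h4k and Hist1h3i, so the division of their counts by gene length used models of very different extent.

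**Figure D1:**
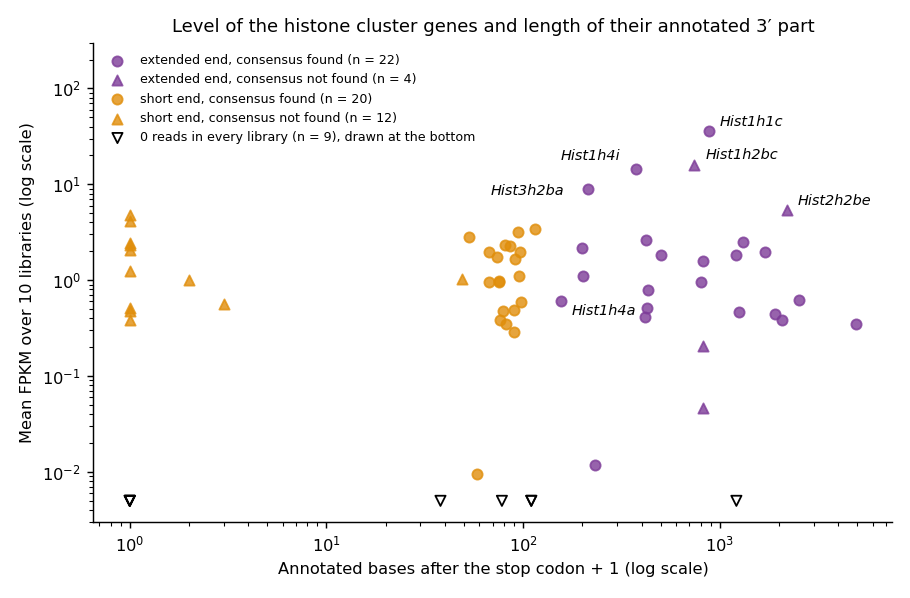
Mean FPKM over the 10 libraries (vertical, log scale) of the 67 members that are not pseudogenes, against the annotated bases after the stop codon plus 1 (horizontal, log scale), with circles for members holding the stem-loop consensus and triangles for those without it. The 5 labelled genes from 5.36 to 35.6 FPKM are all in the extended group, open triangles at the bottom mark the 9 members without reads, and Hist1h4a is labelled because it is described in the text.

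Of the 70 genes, 61 had at least 1 read in some library and 58 passed the filter for testing, a mean of at least 0.1 FPKM. The 9 genes at 0 reads in all 10 libraries were Hist1h2aa, Hist1h2ba, Hist1h4b, Hist2h2aa1, Hist2h2aa2, Hist2h2ab, Hist2h2bb, Hist2h3b and Hist2h3c1. Histone genes of a type are near-copies of each other, so each member was cut into windows of 100 bases and the share also present in another annotated gene, on either strand and overlapping genes included, was counted. In 5 members every window was shared (100%): Hist2h2aa1, Hist2h2aa2, Hist2h2bb, Hist2h3b and Hist2h3c1. For Hist2h2aa2 the sharing gene was Hist2h2aa1. For the others a gene with overlapping exons held every window: Gm20633 for Hist2h2aa1, Gm20628 for Hist2h2bb and Hist2h3b, and Gm20634 for Hist2h3c1. Gm20633, Gm20628 and Gm20634 had 216, 50 and 4 reads over the 10 libraries. All 5 fully shared members were at 0 reads, whereas 2 of the 24 members sharing 50% to under 100% and 2 of the 41 sharing under 50% were. The median number of reads over the 10 libraries was 60.5 in the second set and 171 in the third. How reads that fit several genes, or fall where genes overlap, were counted is not given in the sources used here. A level of 0 in a fully shared gene is thus no sign that the gene is silent, and the part of such reads in these levels was not tested.

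**Figure D2:**
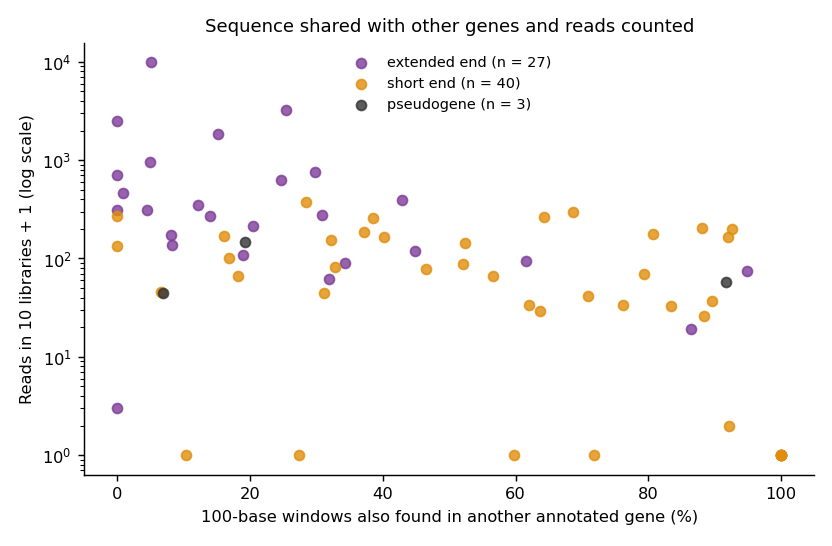
Reads counted in the 10 libraries plus 1 (vertical, log scale) against the percent of a member's 100-base windows that another annotated gene also holds (horizontal), coloured by 3′ end. The 5 members at 100% lie on top of each other at 0 reads, and Hist1h1c, with the most reads, shares 5.07%.

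Libraries differed in histone level more than genotypes did, with group means of 163.2 ± 78.2 FPKM for DUSP6 KO against 146.2 ± 29.8 FPKM for WT (SD of 5 libraries). Summed over the 70 genes, DUSP6 KO 26, 21, 73, 01 and 03 held 135.8, 89.3, 291.2, 177.1 and 122.7 FPKM. WT 65, 67, 73, 77 and 83 held 140.6, 113.7, 133.1, 194.0 and 149.7 FPKM. The WT range thus lies inside the DUSP6 KO range, with the highest and the lowest library both DUSP6 KO. DUSP6 KO 73 was the highest of the 10 libraries in 37 of the 58 genes tested, and WT 77 in 7. For the short-ended genes the DUSP6 KO sums were 38.4, 15.8, 131.7, 76.4 and 28.2 FPKM, an 8.31-fold span from lowest to highest library. The WT sums were 45.7, 26.2, 30.3, 54.7 and 42.6 FPKM. The extended genes spanned 2.07-fold over the 10 libraries, from 71.2 FPKM in DUSP6 KO 21 to 147.8 FPKM in DUSP6 KO 73. Without the 5 genes of highest level, the other 22 extended genes spanned 4.33-fold.

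Genes of S phase and DNA replication, a list of 28, ordered the libraries in much the same way. DUSP6 KO 73 was first in their summed level at 1489 FPKM, WT 77 second at 1159 FPKM and DUSP6 KO 01 next at 1035 FPKM. These 3 libraries were also the first 3 for the short-ended histone genes. WT 67 at 409.5 FPKM and DUSP6 KO 21 at 417.4 FPKM were last in the S phase list, and they were the last 2 for the short-ended genes too, in the opposite order. Mki67, a marker of dividing cells, had its lowest level in WT 67, 25.7 FPKM, and its highest in DUSP6 KO 73, 192.2 FPKM. Slbp, which encodes the stem-loop binding protein, was lowest in DUSP6 KO 21 at 13.5 FPKM and highest in DUSP6 KO 73 at 40.4 FPKM. The summed level of 11 histone variants encoded outside the clusters spanned 1.83-fold. Members of that list differed: H3f3b spanned 1.37-fold, H2afz 2.29-fold and H2afx, which carries the stem-loop consensus, 3.10-fold, and Cenpa, a centromeric H3 variant chosen after its values were seen, lay between 8.39 and 32.5 FPKM. In RNA from whole spleen, fewer cells of a type and less RNA per cell cannot be told apart, and whether the share of dividing cells sets the histone level was not tested.

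**Figure D3:**
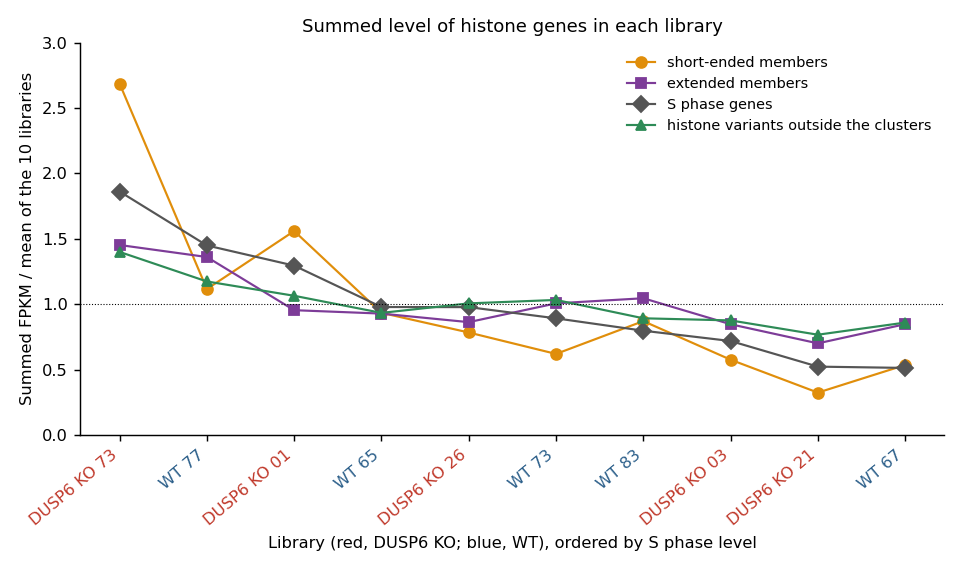
Summed FPKM in each library divided by its mean over the 10 libraries (vertical) for the short-ended and extended histone genes, the 28 S phase genes and the 11 histone variants encoded outside the clusters, with libraries ordered by S phase level and named in red for DUSP6 KO and blue for WT. Short-ended genes span the widest range, 8.31-fold, and both genotypes occur at each end of the order.

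DUSP6 KO and WT were compared gene by gene with limma on log2(FPKM + 0.1) over the 21296 genes that passed the filter. No histone gene reached an adjusted p of 0.05, which 0.0704% of all genes tested did, and the lowest adjusted p of a member was 0.352. At an unadjusted p under 0.05, 3 of the 58 members were higher in DUSP6 KO (5.17%, beside 2.62% of all genes) and 4 were lower (6.90%, beside 3.03%). Among the 3, Hist1h2al and Hist1h4a passed the filter only through the DUSP6 KO libraries, so the count of higher members gives no support for a rise. None of the 70 had DUSP6 KO and WT values that did not overlap, a separation found upward in 0.549% and downward in 0.563% of all genes tested. The median log2 fold change of the 58 was 0.32, with 35 positive (60.3%), and that of all genes was -0.005, with 49.0% positive. Setting Hist1h2al at the lower bound given below leaves the median of the 58 at 0.32 by construction, since bound and fitted value both lie above it. Short-ended members had a median of 0.50 (20 of 31 positive) and extended members one of 0.13 (13 of 24 positive). These medians moved with single libraries. Leaving out 1 library at a time, the median of the 58 ran from 0.02 (without DUSP6 KO 73) to 0.53 (without DUSP6 KO 21), that of the short-ended from 0.097 to 0.87 and that of the extended from -0.085 to 0.28. It was 0.08 for the 58 without WT 67, 0.12 without DUSP6 KO 01, 0.525 without DUSP6 KO 03 and 0.49 without WT 77. Without DUSP6 KO 73 and WT 67 together, a choice made after the data had been examined, it was -0.17.

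**Figure D4:**
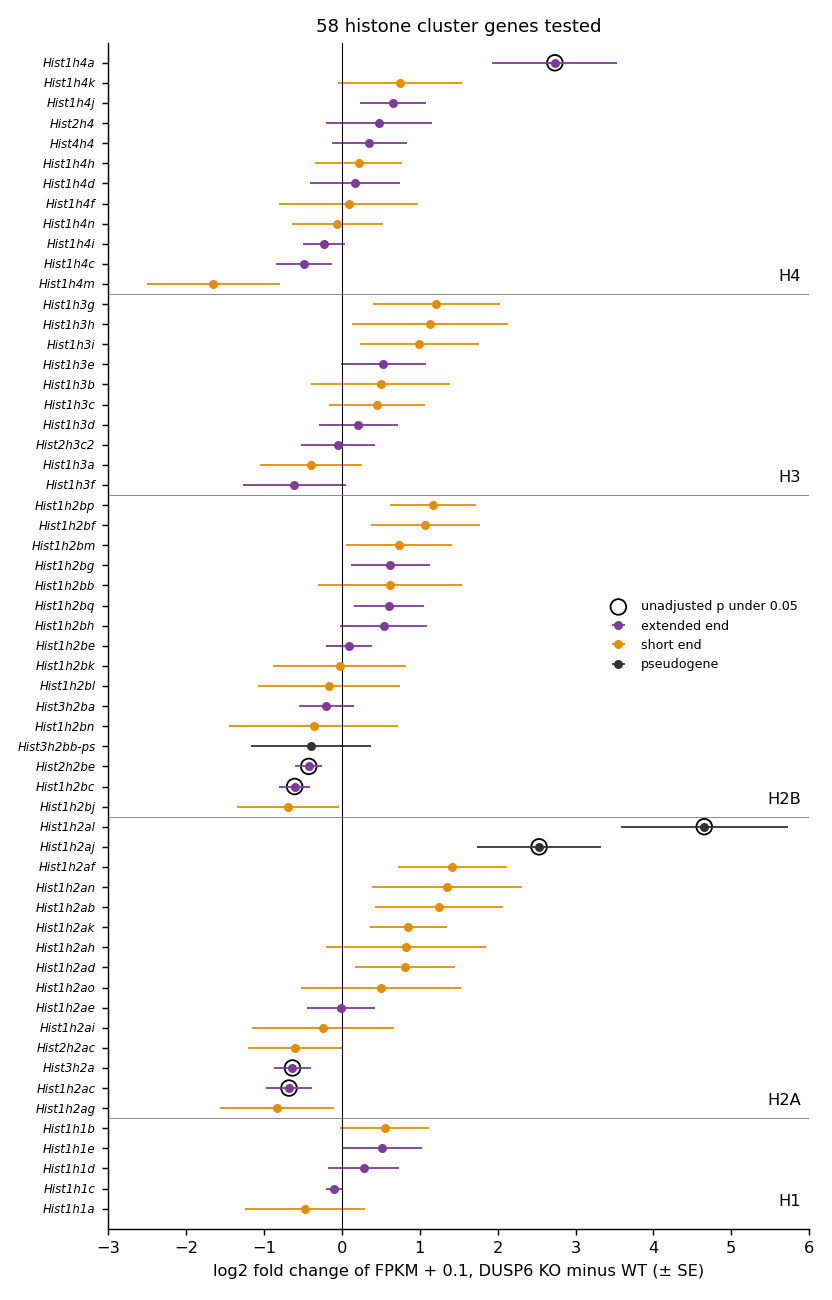
log2 fold change of FPKM + 0.1, DUSP6 KO minus WT, with its standard error (horizontal) for the 58 members tested, grouped by histone type and coloured by 3′ end. The 7 circled genes have an unadjusted p under 0.05, with Hist1h2al at 4.65 farthest to the right, and none passed adjustment over all genes.

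Hist1h2al, an H2A gene annotated as a processed pseudogene at chr13:51202727-51203065 on the minus strand, had the largest fold change of the 58. It held 58, 0, 30, 16 and 43 reads in DUSP6 KO 26, 21, 73, 01 and 03, or 9.17, 0, 6.04, 2.18 and 7.65 FPKM. All 5 WT libraries were at 0. Reads were thus present in 4 of 5 DUSP6 KO libraries and in none of the WT libraries, and DUSP6 KO 21 overlapped with WT. Against a floor of 3 reads in each WT library, 0.504 FPKM, the DUSP6 KO mean of 5.01 ± 3.82 FPKM (SD, n = 5) was at least 9.93-fold higher. The log2 fold change from limma was 4.65 ± 1.07 (SE, adjusted p = 0.352), a value that depends on the pseudocount (2.19 with 1 and 7.29 with 0.01). By a two-sided exact permutation test of the FPKM values, p was 0.048. Without ties, 5 against 5 can give 0.0079. Here DUSP6 KO 21 and all 5 WT libraries were tied at 0, so 0.048 was the smallest p these values could give. That p thus only restates which libraries held reads. Hist1h2al passed the filter on low values only through the DUSP6 KO libraries. Over the alternatives the adjusted p ran from 0.00013 to 0.854, and the lowest came from leaving out DUSP6 KO 21, which removes the 1 DUSP6 KO library without a read and so gives no further support.

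Over its 339 bases Hist1h2al is 99.4% identical to Hist2h2aa1 and Hist2h2aa2, the pair of H2A genes on chromosome 3 that were at 0 reads in all 10 libraries, and 98.2% identical to Hist2h2ac. It differs from Hist2h2aa1 by T120C and G216T, counted from the 5′ end of Hist1h2al with the base of Hist2h2aa1 first. Both lie in the stretch below, shown because these bases are all that sets Hist1h2al apart from Hist2h2aa1 over those 339 bases. Capitals mark them; the stretch covers bases 100 to 236 of Hist1h2al, at chr13:51202830-51202966 on the minus strand, and its counterpart in Hist2h2aa1 at chr3:96245695-96245831 on the plus strand.
Hist1h2al: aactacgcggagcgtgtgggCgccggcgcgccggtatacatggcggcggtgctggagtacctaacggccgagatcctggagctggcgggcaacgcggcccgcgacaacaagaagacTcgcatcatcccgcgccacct
Hist2h2aa1: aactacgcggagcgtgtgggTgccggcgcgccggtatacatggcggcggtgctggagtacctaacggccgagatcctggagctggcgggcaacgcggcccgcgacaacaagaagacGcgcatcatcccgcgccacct
Of the windows of 100 bases in Hist1h2al, 19.2% also occur in another gene. The gene that overlaps it on the opposite strand, Gm44341, was at 0 reads in all 10 libraries. From which of the near-identical copies the reads came is uncertain, and this was not tested.

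Hist1h4a, one of the H4 genes, at chr13:23760692-23761230 on the minus strand, was low in every library. It held 19, 0, 11, 24 and 5 reads in DUSP6 KO 26, 21, 73, 01 and 03 and 2 reads in WT 77, with 0 in the other 4 WT libraries. As with Hist1h2al, DUSP6 KO 21 had no read and 4 of 5 DUSP6 KO libraries lay above all WT libraries. Per unit of depth, the 59 reads of DUSP6 KO were 28.5 times the 2 reads of WT, with a 95% counting interval of 7.55 to 241. The interval is an exact binomial one and covers counting error only. On the log2 scale the difference was 2.73 ± 0.80 (SE, adjusted p = 0.556), and the exact permutation p was 0.048. Over the alternatives the adjusted p ran from 0.030 to 0.928, the lowest again from leaving out DUSP6 KO 21, its only DUSP6 KO library without a read. It too passed the filter only through the DUSP6 KO libraries. Hist1h4a shares 31.8% of its windows with other genes.

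The other member that was higher at an unadjusted p, Hist1h2aj, is an H2A pseudogene 99.4% identical over 341 bases to the H2A gene Hist1h2ad. It held 0.457, 0.877, 5.04, 1.44 and 0.514 FPKM in DUSP6 KO 26, 21, 73, 01 and 03. WT 73 held 0.329 FPKM and WT 77 0.854 FPKM, and the other 3 WT libraries were at 0. DUSP6 KO 73 was far above the others, and WT 77 lay above DUSP6 KO 26 and 03. The 49 reads in DUSP6 KO were 6.77 times the 7 in WT per unit of depth (95% counting interval 3.05 to 17.7). Its log2 fold change was 2.53 ± 0.80 (SE, adjusted p = 0.633). Of its windows, 91.7% occur in another gene, and the H2A gene Hist1h2ai holds all of these. Hist1h2ai had 12 reads in DUSP6 KO and 13 in WT, and Hist1h2ad had 20 and 8. From which copy the reads of Hist1h2aj came was not tested.

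The 4 members that were lower at an unadjusted p were all extended, and 2 of them were among the 5 of highest level. Hist1h2bc stood at 12.7, 7.70, 17.1, 11.98 and 14.5 FPKM in DUSP6 KO 26, 21, 73, 01 and 03 and at 15.9, 16.4, 20.46, 24.6 and 18.4 FPKM in WT 65, 67, 73, 77 and 83. Only DUSP6 KO 73 reached into the WT range. Its mean over 5 libraries (± SD) was 12.8 ± 3.47 FPKM for DUSP6 KO against 19.1 ± 3.53 FPKM for WT, a log2 difference of -0.61 ± 0.20 (SE, adjusted p = 0.703). The exact permutation p was 0.024. The unadjusted limma p stayed under 0.05 in 22 of 22 alternatives, where the log2 difference lay between -0.77 and -0.44.

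Hist2h2be was at 3.81, 4.71, 5.76, 5.14 and 3.41 FPKM in DUSP6 KO and at 4.91, 5.34, 6.77, 8.08 and 5.66 FPKM in WT, in the same order of animals. The groups overlapped from 4.91 to 5.76 FPKM, and the log2 difference was -0.43 ± 0.17 (SE, adjusted p = 0.822). Its unadjusted p stayed under 0.05 in 18 of 22 alternatives and was lost without DUSP6 KO 26, DUSP6 KO 03, WT 73 or WT 77. Hist3h2a, an H2A gene, was at 1.82, 1.80, 1.24, 0.839 and 2.13 FPKM in DUSP6 KO and at 1.85, 2.73, 2.35, 2.55 and 2.47 FPKM in WT. Only DUSP6 KO 03 exceeded the lowest WT library, WT 65, and the log2 difference was -0.63 ± 0.23 (SE, adjusted p = 0.767), under 0.05 unadjusted in 21 of 22 alternatives and not without DUSP6 KO 73 and WT 67 together. The exons of Hist3h2a overlap those of Trim17 on the same strand, so reads there could belong to either gene; Trim17 had 163 reads in all, beside 755 for Hist3h2a. Hist1h2ac, another H2A gene, was at 0.324, 0.394, 0.220, 0.223 and 0.170 FPKM in DUSP6 KO and at 0.330, 0.612, 0.701, 0.267 and 0.585 FPKM in WT. Here WT 65 and WT 77 lay within the DUSP6 KO range, and the log2 difference was -0.68 ± 0.30 (SE, adjusted p = 0.862). Its unadjusted p was under 0.05 in 12 of 21 alternatives. It was not with no filter, with voom, without any single one of DUSP6 KO 73, 01 and 03 and WT 67, 73 and 83, or without DUSP6 KO 73 and WT 67 together. The exons of Hist1h2ac overlap those of Gm24991 on the same strand. The lowest library was DUSP6 KO 21 for Hist1h2bc, DUSP6 KO 01 for Hist3h2a, and DUSP6 KO 03 for Hist2h2be and Hist1h2ac.

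**Figure D5:**
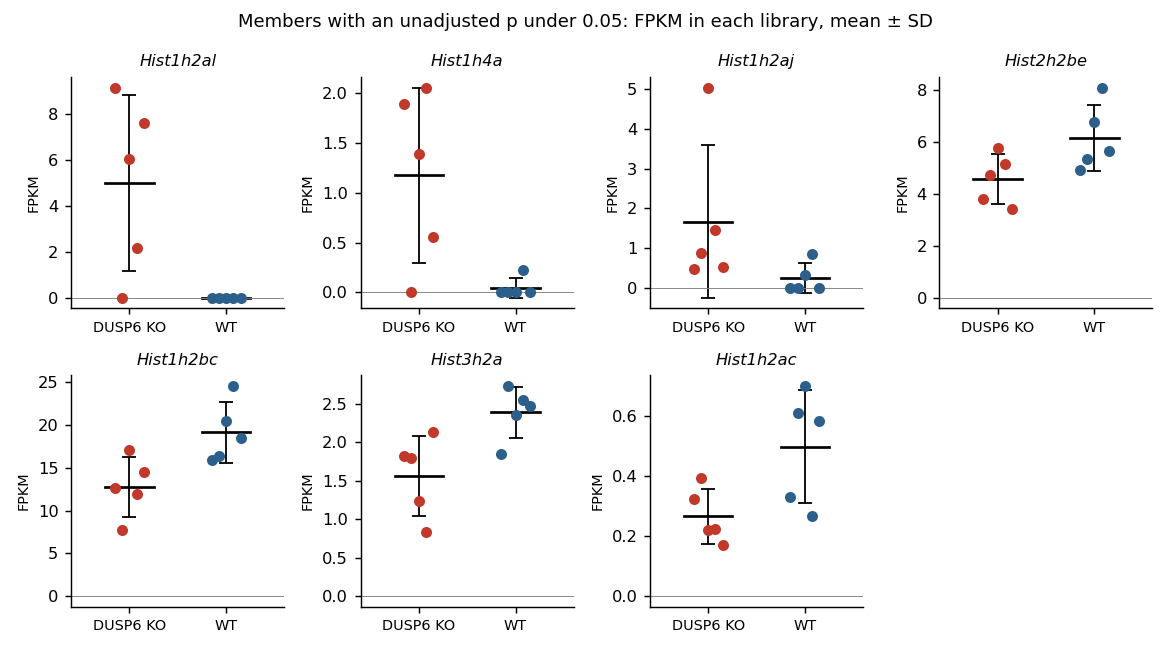
FPKM (vertical, from each panel's own scale) of the 7 members with an unadjusted p under 0.05, with 1 point per library, a bar for the group mean and error bars for the SD of 5 libraries. Hist1h2al is at 0 in WT, Hist1h4a at 0 in all WT libraries but WT 77, and Hist1h2aj in WT 77 (0.854 FPKM) lies above DUSP6 KO 26 and 03, while Hist2h2be, Hist1h2bc, Hist3h2a and Hist1h2ac are lower on average in DUSP6 KO with overlapping groups.

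Among the linker histone genes, 0 of 5 tested had an unadjusted p under 0.05. The sum over H1 (± SD of 5 libraries) was 40.9 ± 8.74 FPKM for DUSP6 KO against 40.9 ± 5.96 FPKM for WT. Hist1h1c had 32.2, 33.6, 41.4, 31.8 and 32.8 FPKM in DUSP6 KO and 29.8, 34.0, 38.0, 42.4 and 39.95 FPKM in WT, a log2 difference of -0.10 ± 0.11 (SE, adjusted p = 0.991). It was the steadiest of the abundant members, with 1.42-fold between its lowest and highest library. Hist1h1e averaged 2.41 ± 1.74 FPKM against 1.29 ± 0.26 FPKM, and Hist1h1b 2.66 ± 2.38 and 1.52 ± 0.94 FPKM. In both, DUSP6 KO 73 had the highest value, at 4.99 and 6.61 FPKM. The exons of Hist1h1e overlap those of Hist1h2be and Gm11398 on the same strand, and 24.7% of its windows also occur in another gene. Reads in the overlap could thus belong to any of these genes.

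The H2A genes summed to 24.5 ± 14.6 FPKM against 13.0 ± 3.83 FPKM, here and below with DUSP6 KO first and the SD of 5 libraries, and 2 of 15 tested were higher and 2 lower at an unadjusted p. The 2 higher were the pseudogenes Hist1h2al and Hist1h2aj. Over all genes tested, 2.62% were higher and 3.03% lower, and the counts by histone type are to be read beside these shares. Without the 3 H2A genes of highest level, Hist1h2al, Hist1h2ak and Hist1h2ao, the difference between the sums fell from 11.5 to 3.71 FPKM. Hist1h2ak had a log2 difference of 0.85 ± 0.50 (SE, adjusted p = 0.944) and Hist1h2ao one of 0.50 ± 1.03 (adjusted p = 0.993). The H2B genes summed to 35.9 ± 13.6 FPKM against 43.9 ± 9.30 FPKM, and 2 of 16 were lower, namely Hist1h2bc and Hist2h2be. Hist3h2ba, the H2B gene of second-highest level, had 5.06, 5.95, 14.7, 7.07 and 8.345 FPKM in DUSP6 KO and 8.19, 4.18, 9.63, 15.5 and 10.3 FPKM in WT (log2 difference -0.20 ± 0.35, adjusted p = 0.993). Its values spread widely in both groups, with DUSP6 KO 73 and WT 77 on top.

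The H3 genes summed to 23.8 ± 19.1 FPKM against 13.5 ± 4.89 FPKM, and 0 of 10 tested passed an unadjusted p of 0.05. Hist1h3i had 5.48, 1.25, 16.3, 7.64 and 0.733 FPKM in DUSP6 KO and 3.27, 1.02, 0.988, 2.78 and 2.04 FPKM in WT. Its log2 difference of 0.995 ± 0.76 (SE, adjusted p = 0.974) came with DUSP6 KO libraries both above and below all WT libraries. Hist1h3c averaged 4.23 ± 3.75 and 2.61 ± 1.41 FPKM and Hist1h3e 3.35 ± 2.54 and 1.93 ± 0.87 FPKM in DUSP6 KO and WT. The H4 genes summed to 38.1 ± 23.2 and 34.9 ± 10.8 FPKM, with 1 of 12 higher, Hist1h4a. Hist1h4i had 9.66, 8.91, 23.8, 11.8 and 13.4 FPKM in DUSP6 KO and 16.01, 11.6, 13.0, 23.5 and 12.8 FPKM in WT (log2 difference -0.23 ± 0.27, adjusted p = 0.993). Hist1h4k differed by 0.74 ± 0.80 (adjusted p = 0.986) and Hist1h4h by 0.22 ± 0.56 (adjusted p = 0.993).

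For H1, H2B, H3 and H4, the difference between the sums of the groups was smaller than the pooled SD of the libraries, and for H2A it was 11.5 FPKM beside an SD of 10.6 FPKM. DUSP6 KO 73 bore on each of them. Without it the difference was 5.85 FPKM for H2A, 2.85 FPKM for H3, -6.39 FPKM for H4, -3.77 FPKM for H1 and -13.6 FPKM for H2B. Without DUSP6 KO 73 the sum of the short-ended genes in DUSP6 KO was 0.99 times that in WT, beside 1.46 times with it.

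Other genes of the histone pathway were compared by lists. Their counts are to be read beside the shares over all genes tested, 2.62% higher and 3.03% lower at an unadjusted limma p under 0.05. In lists this short, a count of 0 is no sign that a pathway is unchanged. Among the 11 histone variants encoded outside the clusters, most of which are made outside S phase as well, 0 passed an unadjusted p of 0.05 in either direction, and the median log2 fold change was 0.04. H3f3b, which encodes the variant H3.3, averaged 182.0 ± 24.2 FPKM against 181.5 ± 12.1 FPKM. H2afz, for H2A.Z, averaged 151.1 ± 47.6 and 145.3 ± 32.1 FPKM. H2afx, for H2A.X, averaged 116.5 ± 47.2 and 102.1 ± 29.2 FPKM, and H1f0, a linker histone of resting cells, 20.95 ± 3.78 and 18.8 ± 1.51 FPKM. Of the 20 genes tested for histone mRNA transcription and 3′ end processing, 0 passed (median 0.04); Slbp averaged 24.4 ± 10.4 and 22.3 ± 7.84 FPKM, and Rnu7, for the U7 RNA that directs 3′ cleavage, was at 0 reads. The 18 histone chaperones and import factors had a median of 0.08, the 28 S phase genes one of 0.18 and the 20 genes of G2 and mitosis one of 0.23, and again 0 passed. Without DUSP6 KO 73 these medians were -0.02, -0.06 and -0.08, and without WT 67 they were 0.02, -0.02 and -0.05, so the sign of the S phase and G2 and mitosis medians rested on either library. The medians of the variants and of the 3′ processing genes were -0.06 and -0.01 without DUSP6 KO 73. Mki67 averaged 95.3 ± 63.6 FPKM against 78.0 ± 44.6 FPKM, a log2 difference of 0.24 ± 0.53 (SE, adjusted p = 0.993).

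Markers of spleen cell types were read beside these results, since the members' levels come from mixed tissue. In DUSP6 KO, 5 of 10 neutrophil progenitor markers were lower at an unadjusted p (summed level 97.3 to 245.4 FPKM, beside 137.3 to 753.3 FPKM in WT), as were 4 of 10 mature neutrophil markers (490.2 to 1636 FPKM, beside 1023 to 3923 FPKM). Of 13 megakaryocyte and platelet markers tested, 2 were lower, Pf4 and Itga2b (268.9 to 385.3 FPKM, beside 255.9 to 594.8 FPKM). Of 15 erythroid markers 0 passed, with summed levels of 20679 to 108186 FPKM in DUSP6 KO, highest in DUSP6 KO 73, and 24778 to 51966 FPKM in WT. Of 8 plasma cell markers 2 were lower (505.4 to 758.4 FPKM, beside 483.4 to 981.3 FPKM) and of 10 macrophage markers 2 were higher (1283 to 1970 FPKM, beside 1361 to 1663 FPKM), while 0 of 8 B cell, 0 of 9 T cell, 0 of 8 germinal centre B and 0 of 11 exocrine pancreas markers passed. No marker of these lists was at 0 in all libraries, and none reached an adjusted limma p of 0.05. Over all genes tested, 2.62% were higher and 3.03% lower at an unadjusted limma p under 0.05. The part of these cell types in the histone values was not tested.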

How the data were processed

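RNA of 10 spleens was captured on poly-T beads and sequenced as paired ends by a service provider. The authors used Hisat2 for alignment and featureCounts 1.5.0-p3 for reads per gene, and deposited FPKM values with gene lengths. The submitters' processing notes name the build hg38, a human genome, although the gene identifiers are of the mouse; strand use and the treatment of reads that fit several genes are not given in the sources used here. Each FPKM value times its gene length was a whole multiple of 1 step per library (100% within 0.001 read), which gave reads. The depth implied by that step differs from the sum of the reads, for example 14652374 against 15434643 in DUSP6 KO 73, so FPKM recomputed from the sums was added as an alternative after the data had been examined.

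Groups were compared in R 4.3.3 by limma 3.58.1 (lmFit, then eBayes with a trend) on log2(FPKM + 0.1) of every gene whose mean reached 0.1 FPKM, with p adjusted by Benjamini-Hochberg over all of them and a threshold of 0.05; fold changes are on this scale and understate the change of low genes. The test was also run on simulated counts with the same dispersion for every gene. The spread of the real libraries was not modelled there, so nothing is concluded from that run. For single genes, a two-sided exact permutation test was added. Floors are 3 reads per library. Each mouse gave 1 library, and replicates of a group differed by far more than sampling noise (chi-square per gene 13.4 to 150.7). Genes named are those with an unadjusted p under 0.05 or no overlap, the 3 of highest level in each histone type, Hist1h4a, Hist1h2al, and 6 fixed genes of the pathway lists; the 5 of highest level, Rnu7, Pf4, Itga2b, genes at 0 reads, genes without the consensus in a long 3′ UTR, and near-identical or overlapping genes were named with their values known. The members and lists were chosen with earlier results of these data known. Sequences are from GENCODE M21 transcripts, compared with blastn 2.17.0. Alternatives were other pseudocounts, filters, scalings and weights, voom on the reads, eBayes without trend, and leaving out libraries. Scripts used Python 3.11.15 with numpy 2.4.6, pandas 2.3.3, scipy 1.17.1 and matplotlib 3.10.9, and data.table, version 1.17.8.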

Additional observations from a re-analysis of the deposited data

Results flagged for a closer look

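Within a group of 5 libraries, a value was marked where its gap to the nearest other exceeded 0.71 of the group's range, which chance does in about 1 of 20 groups; 54 groups were examined, 1 of them without spread, and 7 were marked. In DUSP6 KO, the high value was that of DUSP6 KO 73 for Hist1h1c (41.4 FPKM), Hist1h2aj (5.04 FPKM), Hist1h4h (7.55 FPKM) and the sum of the H1 genes (56.2 FPKM). In WT, WT 77 was high for Hist1h4a (0.223 FPKM, 2 reads, with the others at 0) and for the sum of the H2B genes (59.9 FPKM), and WT 67 was low for Hist1h4k (0.336 FPKM, 2 reads).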

How the results depend on the processing

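No paired analysis was possible because the groups share only the animal number 73, which names different mice. Over all genes, the adjusted p reached 0.05 for 8 genes higher in DUSP6 KO and 7 lower. With a mean FPKM of at least 1 the lower calls were 4 and the members higher at an unadjusted p were 1, since fewer genes were tested, and with array weights the higher calls were 13. Without DUSP6 KO 73 and WT 67 together the higher calls were 14. Leaving out single libraries gave 6 to 21 higher and 4 to 13 lower calls, both highest without DUSP6 KO 21, 3 to 7 members higher and 2 to 5 lower at an unadjusted p, and 0 to 2 members past adjustment, namely Hist1h2al and Hist1h4a without DUSP6 KO 21. Members higher numbered 6 without DUSP6 KO 03, and members lower 2 without DUSP6 KO 03 or WT 73. Log2 differences changed sign for Hist1h4h without DUSP6 KO 73 (-0.13) or WT 67 (-0.16; highest without WT 77, 0.53), for Hist1h2ao without DUSP6 KO 01 (-0.0021) or WT 67 (-0.41; highest without DUSP6 KO 26, 0.93), and for Hist3h2ba without WT 77 (0.0021). Without DUSP6 KO 73 and WT 67 together they were -0.51 for Hist1h4h, -0.68 for Hist1h2ao, -0.70 for Hist3h2ba, -0.077 for Hist1h1b, -0.11 for Hist1h3c and -0.40 for Hist1h4k. Single libraries left out gave at most 0.90 for Hist1h1b, 0.77 for Hist1h3c and 1.14 for Hist1h4k. None of these had passed the test, and the cause was not tested. The sum over all members changed from 17.0 FPKM higher in DUSP6 KO to -15.02 FPKM without DUSP6 KO 73, and to 35.5 FPKM without DUSP6 KO 21. Of 525 recomputed values of 24 single genes and lists, 513 were labelled unchanged. Single genes were if they kept their direction and side of the threshold, and list medians if they moved by less than the spread between libraries. Of 260 values of 14 counts, medians and sums, 248 were labelled unchanged. For medians and sums the limit was again that spread, and for counts it was a fixed ratio to the main count. The spread between libraries is wide, so such medians could still change sign. Without single libraries, the median of the extended members ran from -0.085 to 0.28, that of the 11 histone variants from -0.056 to 0.13, of transcription and 3′ processing genes from -0.0083 to 0.078, of chaperones from -0.022 to 0.19, of S phase genes from -0.057 to 0.41 and of G2 and mitosis genes from -0.077 to 0.48, each lowest without DUSP6 KO 73. Depth limits the low members: Hist1h4a rests on 59 and 2 reads and Hist1h2aj on 49 and 7, so their sizes are known only within wide intervals.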
